A study of Mus musculus with 9 samples.

Results

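Integrins are cell surface receptors made of 1 alpha and 1 beta chain, and laminins are basement membrane proteins made of 1 alpha, 1 beta and 1 gamma chain. The genes described here were those whose symbol begins with Itga or Itgb, leaving out Itgbl1 and symbols containing "bp", together with the numbered laminin genes of the Lama, Lamb and Lamc series. The rule used names only and no measured value, but it was chosen with earlier results of these data known. It found 37 of the 19937 genes tested, namely 18 integrin alpha subunits, 9 integrin beta subunits and 10 laminin chains. Itgad was represented by more than 1 probe set, and the other 36 genes had 1 each.

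The cells were MC3T3-E1 subclone 4, a preosteoblast line derived from mouse calvaria, which lays down a collagen matrix and later mineralizes it when ascorbic acid and beta-glycerophosphate are added to the medium. All cells had been infected with lentivirus and sorted for green fluorescent protein, and carried either a scrambled short hairpin RNA (Scr) or 1 hairpin to deplete Runx2 (shRunx2), the transcription factor without which osteoblasts do not form. Expression was measured in proliferating Scr cells grown without ascorbic acid (Scr day 0), in Scr cells differentiated for 9 days (Scr day 9) and in shRunx2 cells differentiated for 9 days (shRunx2 day 9), with 3 arrays in each of the 3 groups. The labels call the samples biological replicates without saying how the cultures were separated. The Affymetrix Mouse Gene 1.0 ST array holds several short probes for each gene, and the values are log2 expression after robust multichip average (RMA) normalization, so a difference of 1 is a doubling. Because each probe set has its own brightness, values are compared between groups within a gene and never between genes.

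The alpha chain largely sets what an integrin binds. Alpha1, alpha2, alpha10 and alpha11 join beta1 to form receptors for collagens, alpha3, alpha6 and alpha7 form receptors for laminins, and alpha5, alpha8, alphav and alphaIIb recognize the Arg-Gly-Asp motif of proteins such as fibronectin, vitronectin and nephronectin. The alphav chain pairs with beta1, beta3, beta5, beta6 or beta8, and some of these receptors activate latent transforming growth factor beta. Bone cells use integrins to hold on to the collagen, fibronectin and sialoproteins of their matrix. A second set of subunits, with beta2 and beta7, is typical of leukocytes.

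The arrays of a group resembled each other, with no correlation across genes below 0.9981 within a group and none above 0.9969 between groups. Runx2 was not analysed here, so the knockdown labels could not be checked on their target. Among 10 measured osteoblast markers, 6 were higher and 0 lower at Scr day 9 than at Scr day 0 (60.0% higher, against 14.5% of all genes; 7 had an unadjusted p under 0.05), and 5 were lower and 0 higher in shRunx2 than in Scr cells at day 9 (50.0% lower, against 4.66% of all genes; 5 had an unadjusted p under 0.05). The mean log2 value of these markers lay between 10.103 and 10.187 on Scr day 0 arrays, between 11.067 and 11.13 on Scr day 9 arrays and between 10.638 and 10.647 on shRunx2 arrays. Alpl, the alkaline phosphatase of bone, rose by 1.39 ± 0.0741 (SE) on the log2 scale during differentiation and was lower by a log2 change of -0.75 ± 0.0741 in shRunx2 cells. The RNA came from whole cultures, in which fewer cells of a type and less RNA per cell cannot be told apart.

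To determine how the subunits changed when preosteoblasts became matrix-depositing cells, Scr day 9 was compared with Scr day 0. Rise and fall here mean a limma test with an adjusted p under 0.05 (Benjamini-Hochberg, over all genes tested). Of the 37 subunits 8 rose (21.6%) against 14.5% of all genes, and 8 fell (21.6%) against 17.1% of all genes. Changes of at least 1.5-fold were seen in 7 subunits (18.9%), against 5.14% of all genes. The median log2 change of the subunits was 0.0116, beside -0.0158 over all genes, and their median absolute change was 0.085, beside 0.0772. The 7 were Itga8, Itga10, Lama4 and Itgb8, which rose, and Itga11, Itga6 and Itga5, which fell.

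To describe how the subunits differed with the Runx2 hairpin, shRunx2 was compared with Scr cells at day 9. With 1 hairpin and no shRunx2 arrays at day 0, Runx2 loss, other hairpin effects and earlier differences cannot be told apart. Of the 37 subunits 2 were higher in shRunx2 cells (5.41%) against 2.73% of all genes, and 5 were lower (13.5%) against 4.66%. The higher ones were Itga6 and Itga1, and the lower ones Itgb8, Itgb3, Itgb5, Lamb2 and Itga9. The number reaching 1.5-fold was 0 of 37, against 0.592% of all genes, and 10 subunits had an unadjusted p under 0.05 at any size of change. The share of all genes with such an unadjusted p was not counted, here or for any other list, so these counts have no background. The median log2 change was 0.01, beside -0.0041 over all genes, and the median absolute change was 0.0431, beside 0.0513. This comparison and the previous one share the Scr day 9 arrays. A comparison of shRunx2 day 9 with Scr day 0 was also made. There 10 subunits were higher (27.0%) against 13.8% of all genes, 8 were lower (21.6%) against 20.4%, and 6 changed at least 1.5-fold (16.2%) against 5.7%. Its log2 changes are the sums of those in the other comparisons, whose arrays it reuses, so it is no separate support.

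**Figure D1:**
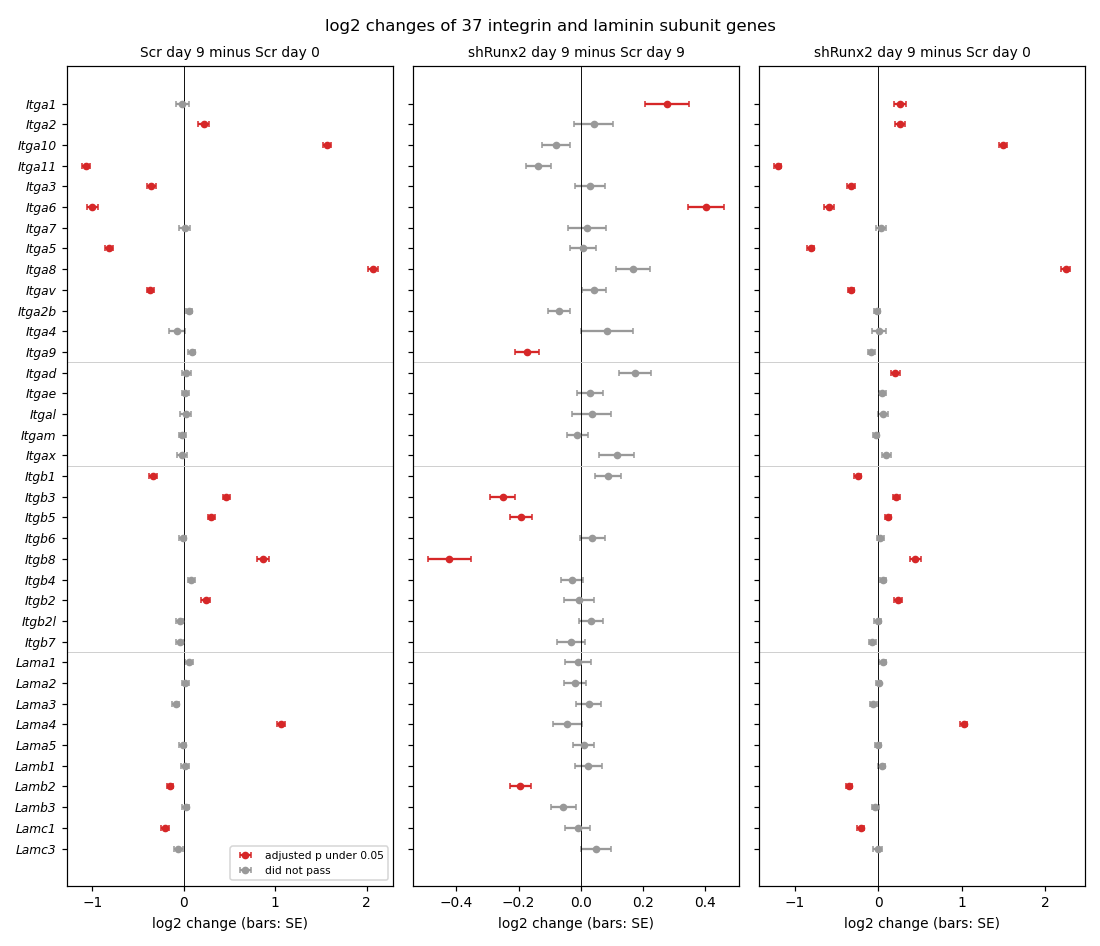
Log2 change of each of the 37 subunit genes (rows) in the 3 comparisons (panels, each with its own horizontal scale), with bars for the standard error of the model and red for an adjusted p under 0.05. During differentiation the points reach from -1.07 (Itga11) to 2.08 (Itga8), whereas between shRunx2 and Scr cells at day 9 they stay between -0.42 (Itgb8) and 0.40 (Itga6).

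The promoters of 3 members are shown, because Itga8 had the largest change of all subunits and Itgb5 and Itgb8 both rose during differentiation and were both lower in shRunx2 cells. Itgb3 moved in the same way, but no promoter was at hand for it. The sequences are the RefSeq bases just before the start of transcription in GRCm38.p6 (mouse), read 5′ to 3′ on the strand of the gene, from chr2:12301986-12302194 (minus strand, 209 bases) for Itga8, chr16:33829415-33829664 (plus strand, 250 bases) for Itgb5 and chr12:119238277-119238526 (minus strand, 250 bases) for Itgb8, and all lie outside the annotated gene. Capitals mark the letters searched on both strands, which were TGTGGT and TGCGGT, the core bound by Runx proteins, TGANTCA, bound by the AP-1 factors Fos and Jun, and GGGCGG, the GC box bound by Sp1.
Itga8: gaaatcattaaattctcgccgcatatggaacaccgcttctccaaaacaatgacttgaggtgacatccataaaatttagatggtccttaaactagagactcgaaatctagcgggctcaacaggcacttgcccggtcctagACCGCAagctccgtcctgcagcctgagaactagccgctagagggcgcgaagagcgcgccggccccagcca
Itgb5: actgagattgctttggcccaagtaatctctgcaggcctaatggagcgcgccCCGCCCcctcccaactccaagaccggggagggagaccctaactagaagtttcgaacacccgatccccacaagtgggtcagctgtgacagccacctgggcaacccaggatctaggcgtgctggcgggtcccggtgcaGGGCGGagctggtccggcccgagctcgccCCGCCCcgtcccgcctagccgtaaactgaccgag
Itgb8: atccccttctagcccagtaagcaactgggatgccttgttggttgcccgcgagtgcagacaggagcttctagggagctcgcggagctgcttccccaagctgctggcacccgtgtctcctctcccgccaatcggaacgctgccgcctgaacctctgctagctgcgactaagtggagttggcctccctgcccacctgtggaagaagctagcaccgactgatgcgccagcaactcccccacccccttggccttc
The Itga8 window held 1 TGCGGT, printed in the opposite orientation as ACCGCA. The Itgb5 window held 3 copies of GGGCGG in either orientation, and none of the searched letters was in the Itgb8 window. Promoters were at hand for 24 of the 37 members, and the search covered the 250 bases before each start. TGTGGT was in those of Itga3 and Itga4 and in 14% of all 32851 promoters, and TGCGGT was in that of Itga8 and in 5.1% of all. TGANTCA was in 1 member (Itgax) and in 6.75% of all promoters, and GGGCGG was in 8 members and in 32.7% of all. Members were counted as genes, with a match in any of their promoters. The shares of all count each promoter singly, so they are not on the same footing. A match of such short letters describes the sequence and does not show that a factor is bound.

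Among the collagen receptors, Itga10 rose and Itga11 fell during differentiation, by 2.97-fold and 2.10-fold. Itga10 encodes a receptor chain best known from cartilage. Its values were 8.50, 8.57 and 8.54 on the Scr day 0 arrays, 10.10, 10.19 and 10.03 at Scr day 9, and 10.00, 10.07 and 10.03 in shRunx2 cells. All day 9 arrays lay more than 1 unit above all day 0 arrays, and the Scr and shRunx2 arrays overlapped. The log2 change was 1.57 ± 0.0452 (SE, adjusted p = 4e-10, limma) during differentiation and -0.08 ± 0.0452 between shRunx2 and Scr cells (adjusted p = 0.386, limma).

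Itga11, a collagen I receptor chain of fibroblasts and osteogenic cells, went the other way. It read 11.86, 11.89 and 11.90 at Scr day 0, 10.86, 10.84 and 10.74 at Scr day 9, and 10.68, 10.66 and 10.70 in shRunx2 cells. Its log2 change during differentiation was -1.07 ± 0.0406 (adjusted p = 3.93e-09, limma). All shRunx2 arrays lay below all Scr day 9 arrays, yet the log2 change of -0.14 ± 0.0406 between them did not pass the test (adjusted p = 0.074, limma). It passed under 4 of the 18 alternative settings tried, 1 of which left out Scr day 9 replicate 3 (0.027), with adjusted p values down to 0.0201. Set against Scr day 0, shRunx2 cells had 2.30-fold less Itga11 and 2.81-fold more Itga10.

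Itga1, which encodes the alpha1 chain known as a receptor for collagens I and IV, was the collagen receptor that differed between shRunx2 and Scr cells. Its values were 9.46, 9.49 and 9.29 at Scr day 0, 9.49, 9.42 and 9.29 at Scr day 9, and 9.67, 9.79 and 9.57 in shRunx2 cells. The Scr groups overlapped and every shRunx2 array lay above every Scr array. Itga1 was 1.21-fold higher in shRunx2 than in Scr cells at day 9 (log2 change 0.28 ± 0.0708, adjusted p = 0.0381, limma) and 1.20-fold higher than at Scr day 0 (adjusted p = 0.012, limma). The call against Scr day 9 was close to the threshold. The adjusted p was 0.0532 without Scr day 0 replicate 1, 0.0501 without Scr day 0 replicate 2, 0.103 without Scr day 9 replicate 2, 0.123 without Scr day 9 replicate 3, 0.112 without shRunx2 replicate 1 and 0.133 without shRunx2 replicate 2. Against Scr day 0 it was 0.0527 without Scr day 0 replicate 3 and 0.0565 without shRunx2 replicate 2.

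Itga2, the neighbour of Itga1 on chromosome 13 with 0 protein-coding genes between them, encodes the other long-known collagen receptor chain. Its mean log2 value was 8.07 ± 0.122 at Scr day 0, 8.29 ± 0.0684 at Scr day 9 and 8.33 ± 0.0688 in shRunx2 cells (SD, n = 3). Itga2 rose by 0.22 ± 0.0627 on the log2 scale during differentiation (adjusted p = 0.0194, limma), but did not pass when Scr day 0 replicate 1 (adjusted p = 0.0672) or Scr day 9 replicate 1 (0.0792) was left out. The difference between shRunx2 and Scr cells was 0.04 ± 0.0627 (adjusted p = 0.786, limma).

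Of the 3 laminin receptor alpha chains, Itga6 and Itga3 fell during differentiation and Itga7 did not pass. Itga6, whose product joins beta1 or beta4, read 10.20, 10.05 and 9.91 at Scr day 0, 9.07, 9.08 and 9.02 at Scr day 9, and 9.46 on each of the 3 shRunx2 arrays. The groups did not overlap, and the shRunx2 arrays lay between the Scr groups. Itga6 fell 2.00-fold during differentiation (log2 change -0.997 ± 0.059, adjusted p = 1.47e-07, limma), was 1.32-fold higher in shRunx2 than in Scr cells at day 9 (0.40 ± 0.059, adjusted p = 0.00153, limma) and was 1.51-fold lower in shRunx2 cells than at Scr day 0 (-0.59 ± 0.059, adjusted p = 9.63e-06, limma).

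The identical Itga6 values in shRunx2 cells are as deposited. The median polish step of RMA can return the same value for several arrays, and 383 of the 19937 genes (1.92%) had 1 value on all 3 shRunx2 arrays. An SD of 0 there understates the spread. The standard error of the model draws on all 3 groups, so the tied group can make it too small as well. The call for Itga6 between shRunx2 and Scr cells was kept under all 18 alternative settings, but these all start from the same deposited values.

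Itga3, the chain of the alpha3beta1 laminin receptor, had means of 10.60 ± 0.0165 at Scr day 0, 10.25 ± 0.0902 at Scr day 9 and 10.28 ± 0.0529 in shRunx2 cells (SD, n = 3). Itga3 fell 1.28-fold during differentiation (adjusted p = 0.000144, limma), with a difference of 0.03 ± 0.0484 between shRunx2 and Scr cells (adjusted p = 0.793, limma). Itga7, a chain typical of muscle, had log2 changes of 0.01 ± 0.0617 and 0.02 ± 0.0617 in the same comparisons. Itgb4, the hemidesmosome chain that pairs with alpha6 in epithelia, had means of 8.86, 8.95 and 8.92 in the 3 groups and passed in no comparison.

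**Figure D2:**
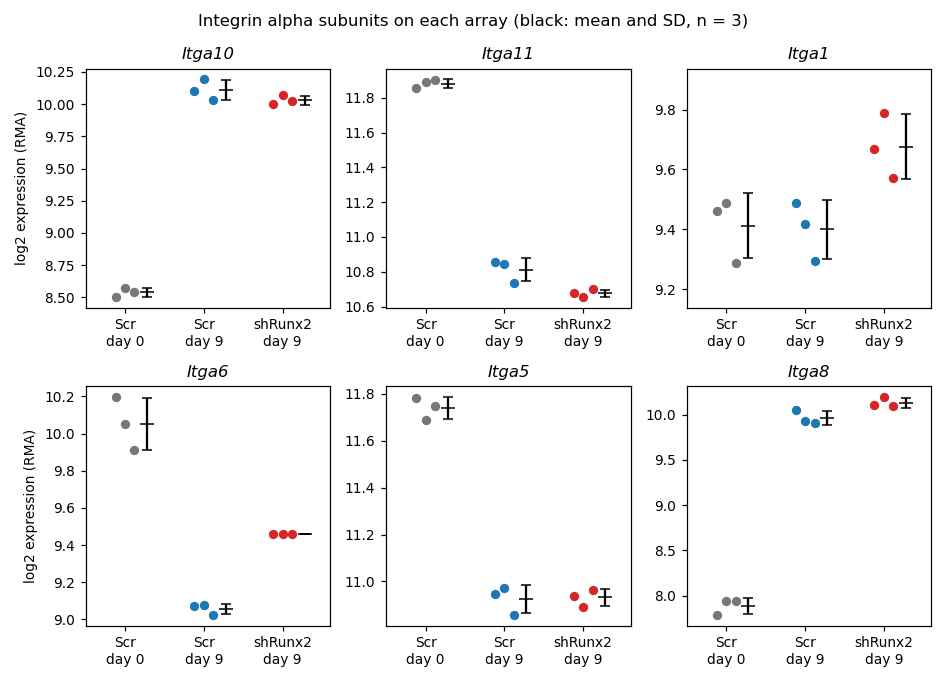
Log2 expression (vertical axes, each panel with its own scale) of 6 integrin alpha subunits on each of the 3 arrays of a group (points, with the mean and SD beside them). Itga10 and Itga8 are high and Itga11 and Itga5 low in both day 9 groups, Itga1 is high on the shRunx2 arrays alone, and Itga6 on the shRunx2 arrays lies at 9.46, between the Scr groups.

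Among the chains that recognize Arg-Gly-Asp, Itga8 rose 4.21-fold and Itga5 fell 1.76-fold during differentiation. Itga8, whose product with beta1 is a receptor for nephronectin and fibronectin, read 7.79, 7.94 and 7.94 at Scr day 0, 10.05, 9.93 and 9.91 at Scr day 9, and 10.11, 10.19 and 10.10 in shRunx2 cells. Every shRunx2 array lay above every Scr day 9 array, by a small margin beside the distance of both from day 0. The log2 change was 2.08 ± 0.0543 during differentiation (adjusted p = 2.08e-10, limma), 2.24 ± 0.0543 from Scr day 0 to shRunx2 day 9 (adjusted p = 9.5e-11, limma) and 0.17 ± 0.0543 between shRunx2 and Scr cells at day 9, which did not pass (adjusted p = 0.0962, limma). That last difference passed under 3 alternative settings, with an adjusted p of 0.00915 after a further quantile normalization.

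Itga5, the alpha chain of the main fibronectin receptor, read 11.78, 11.69 and 11.75 at Scr day 0, 10.94, 10.97 and 10.86 at Scr day 9, and 10.94, 10.89 and 10.96 in shRunx2 cells. The 2 day 9 groups overlapped and lay below day 0. Its log2 change was -0.81 ± 0.0428 during differentiation (adjusted p = 5.54e-08, limma) and 0.01 ± 0.0428 between shRunx2 and Scr cells (adjusted p = 0.952, limma).

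Itgav, the alphav chain shared by several receptors of bone cells, read 12.62, 12.71 and 12.63 at Scr day 0, 12.28, 12.33 and 12.25 at Scr day 9, and 12.34, 12.34 and 12.31 in shRunx2 cells. Itgav fell 1.29-fold during differentiation (log2 change -0.37 ± 0.0385, adjusted p = 1.8e-05, limma), and the 0.04 ± 0.0385 between shRunx2 and Scr cells did not pass (adjusted p = 0.612, limma). Itga2b, the platelet chain, had log2 changes of 0.06 ± 0.035 and -0.07 ± 0.035 in these comparisons, and neither passed.

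Itgb1, the partner of most alpha chains above, read 12.34, 12.23 and 12.21 at Scr day 0, 11.90, 11.97 and 11.92 at Scr day 9, and 12.03, 12.02 and 11.99 in shRunx2 cells. It was lower on every day 9 array than on every day 0 array. Itgb1 fell by 0.33 ± 0.042 on the log2 scale during differentiation (adjusted p = 7.32e-05, limma), and its difference of 0.09 ± 0.042 between shRunx2 and Scr cells did not pass (adjusted p = 0.283, limma), although the 3 shRunx2 arrays lay above the 3 Scr arrays.

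Of the 5 beta chains that pair with alphav, 3 (Itgb3, Itgb5 and Itgb8) rose and 1 (Itgb1) fell during differentiation (60.0% and 20.0%, against 14.5% and 17.1% of all genes), and Itgav itself fell. The same 3 were lower and 0 were higher in shRunx2 than in Scr cells at day 9 (60.0% lower, against 4.66% of all genes), where Itgb1 and Itgb6 did not pass and 3 of the 5 had an unadjusted p under 0.05. The median log2 change of the 5 was 0.30 and -0.19 in these comparisons, beside -0.0158 and -0.0041 over all genes. In shRunx2 cells against Scr day 0, those 3 were higher, with smaller changes than in Scr cells, and Itgb1 was lower (60.0% and 20.0%, against 13.8% and 20.4% of all genes). That log2 change is the sum of those in the other comparisons. The smaller changes therefore follow from the lower values in shRunx2 cells and are no separate support. No test of the group was made. A group of 5 chosen by name, with earlier results of these data known, allows no statement on how particular the counts are.

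Itgb8, whose alphav receptor binds latent transforming growth factor beta, read 8.16, 8.27 and 8.05 at Scr day 0, 9.11, 9.10 and 8.88 at Scr day 9, and 8.57, 8.59 and 8.65 in shRunx2 cells. The 3 groups did not overlap and shRunx2 lay in the middle. Itgb8 rose 1.82-fold during differentiation (log2 change 0.87 ± 0.0684, adjusted p = 1.68e-06, limma) and was 1.34-fold lower in shRunx2 than in Scr cells at day 9 (-0.42 ± 0.0684, adjusted p = 0.00303, limma). Relative to Scr day 0 the shRunx2 cells were 1.36-fold higher (0.44 ± 0.0684, adjusted p = 0.000304, limma).

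Itgb3, which with alphav forms the vitronectin receptor, read 9.73, 9.76 and 9.72 at Scr day 0, 10.24, 10.26 and 10.12 at Scr day 9, and 9.95 on each of the 3 shRunx2 arrays, another case of 1 value for the whole group. Again the groups did not overlap and shRunx2 lay in the middle. The log2 change was 0.47 ± 0.0415 during differentiation (1.38-fold, adjusted p = 4.23e-06, limma), -0.25 ± 0.0415 between shRunx2 and Scr cells (1.19-fold lower, adjusted p = 0.00343, limma) and 0.22 ± 0.0415 between shRunx2 cells and Scr day 0 (adjusted p = 0.0014, limma).

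Itgb5, the other vitronectin-binding partner of alphav, read 12.26, 12.24 and 12.30 at Scr day 0, 12.55, 12.62 and 12.55 at Scr day 9, and 12.39, 12.37 and 12.39 in shRunx2 cells. The order of the groups was the same as for Itgb3 and Itgb8. Itgb5 rose 1.24-fold during differentiation (log2 change 0.30 ± 0.0359, adjusted p = 4.48e-05, limma) and was 1.14-fold lower in shRunx2 than in Scr cells (-0.19 ± 0.0359, adjusted p = 0.0077, limma). Against Scr day 0 it was 1.08-fold higher in shRunx2 cells (adjusted p = 0.0301, limma). That small difference was lost when each array was centred on its median (adjusted p = 0.134), and without Scr day 0 replicate 1 (0.0662), Scr day 0 replicate 2 (0.101), shRunx2 replicate 1 (0.0769) or shRunx2 replicate 3 (0.0806).

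Itgb6, the epithelial partner of alphav, had means of 6.68, 6.67 and 6.71 in the 3 groups and passed in no comparison. The deposited values carry no detection call, so whether a dim probe set such as this one measured any transcript is not known.

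**Figure D3:**
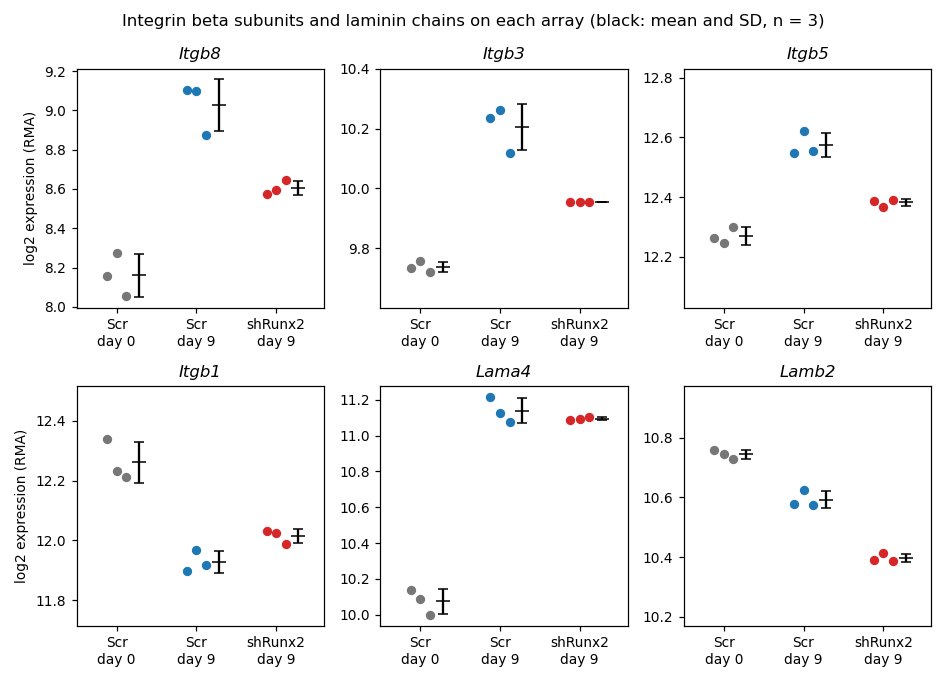
Log2 expression (vertical axes, each panel with its own scale) of 4 integrin beta subunits and 2 laminin chains on each of the 3 arrays of a group (points, with the mean and SD beside them). Itgb8, Itgb3 and Itgb5 lie on the shRunx2 arrays between Scr day 0 and Scr day 9, Lama4 is high in both day 9 groups, and Lamb2 is lowest on the shRunx2 arrays.

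Itga9, which with beta1 binds tenascin C and osteopontin, read 8.45, 8.44 and 8.46 at Scr day 0, 8.58, 8.57 and 8.47 at Scr day 9, and 8.33, 8.38 and 8.39 in shRunx2 cells. Every shRunx2 array lay below every Scr array. Itga9 was 1.13-fold lower in shRunx2 than in Scr cells at day 9 (log2 change -0.17 ± 0.0398, adjusted p = 0.0232, limma), and its change of 0.09 ± 0.0398 during differentiation did not pass (adjusted p = 0.121, limma). The difference between shRunx2 and Scr cells did not pass once Scr day 9 replicate 1 (adjusted p = 0.0754), Scr day 9 replicate 2 (0.107), shRunx2 replicate 1 (0.0976) or shRunx2 replicate 2 (0.0585) was left out, while the change during differentiation passed without Scr day 9 replicate 3 (0.036). Itga4, the related chain that binds vascular cell adhesion molecule 1 and fibronectin, had log2 changes of -0.07 ± 0.0834 during differentiation and 0.08 ± 0.0834 between shRunx2 and Scr cells, and neither passed.

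Of the 5 alpha chains typical of leukocytes (Itgad, Itgae, Itgal, Itgam and Itgax), 0 passed in Scr day 9 against Scr day 0 (0 with an unadjusted p under 0.05) and 0 in shRunx2 against Scr day 9 (1 with an unadjusted p under 0.05, Itgad). Of all genes 14.5% rose and 17.1% fell in the former comparison, and 2.73% were higher and 4.66% lower in the latter. Itgam, Itgax and Itgad lie side by side on chromosome 7. Itgad was 1.15-fold higher in shRunx2 cells than at Scr day 0 (log2 change 0.21 ± 0.0521, adjusted p = 0.00866, limma), from 8.85 ± 0.0623 to 9.05 ± 0.0994 (SD, n = 3). Its other probe set lay between 7.907 and 8.009 in shRunx2 cells and between 7.93 and 7.996 at Scr day 0, and with the mean of both probe sets the call was lost (adjusted p = 0.0868).

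Itgb2, the common beta chain of the receptors with Itgad, Itgal, Itgam or Itgax, had means of 8.03 ± 0.0392 at Scr day 0, 8.28 ± 0.0763 at Scr day 9 and 8.27 ± 0.0601 in shRunx2 cells (SD, n = 3). Itgb2 rose 1.18-fold during differentiation (log2 change 0.24 ± 0.0481, adjusted p = 0.00215, limma), and the difference of -0.01 ± 0.0481 between shRunx2 and Scr cells did not pass (adjusted p = 0.971, limma). Itgb7 and Itgb2l passed in no comparison. Of 14 leukocyte markers, 2 rose (Lyz2 by a log2 change of 0.80 ± 0.0865 and Fcer1g by 0.50 ± 0.0475) and 1 fell (Cd14, -0.32 ± 0.0481) during differentiation. These were 14.3% and 7.14% of the list, against 14.5% and 17.1% of all genes. In shRunx2 against Scr cells Lyz2 was higher (0.42 ± 0.0865) and Fcer1g lower (-0.27 ± 0.0475), 7.14% each, against 2.73% and 4.66% of all genes. The mean of the 14 markers lay between 7.742 and 7.79 at Scr day 0, between 7.811 and 7.839 at Scr day 9 and between 7.813 and 7.867 in shRunx2 cells. Their part in the rise of Itgb2 was not tested.

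Markers of other cells that use these receptors were also read. Among 12 endothelial and platelet markers Flt1 (0.44 ± 0.0378) and Pf4 (0.24 ± 0.06) rose during differentiation (16.7%, against 14.5% of all genes). Of this list Flt1 was lower in shRunx2 cells (-0.22 ± 0.0378, 8.33%, against 4.66% of all genes). The mean of the 12 markers lay between 8.005 and 8.056 at Scr day 0, between 8.024 and 8.099 at Scr day 9 and between 8.082 and 8.099 in shRunx2 cells. Among 12 epithelial markers Trp63 (1.30 ± 0.0494) and Cdh1 (0.21 ± 0.0523) rose and Krt14 (-1.04 ± 0.0467) fell during differentiation (16.7% and 8.33%, against 14.5% and 17.1% of all genes). In shRunx2 against Scr cells 0 of them passed (limma, 1 with an unadjusted p under 0.05), against 2.73% higher and 4.66% lower of all genes. The mean of the 12 epithelial markers lay between 8.389 and 8.421, between 8.324 and 8.445 and between 8.435 and 8.445 in the same 3 groups. Among 12 muscle markers Smtn (0.29 ± 0.0374) and Tagln (0.26 ± 0.044) rose and Ckm (-0.20 ± 0.0544) and Lmod1 (-0.17 ± 0.0498) fell during differentiation (16.7% each, against 14.5% and 17.1% of all genes). Of this list Smtn (-0.16 ± 0.0374) and Tagln (-0.17 ± 0.044) were lower in shRunx2 cells (16.7%, against 4.66% of all genes). The mean of the 12 muscle markers lay between 9.468 and 9.513, between 9.437 and 9.486 and between 9.506 and 9.521.

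Laminins assemble from 1 chain of each kind. Of the 10 chains measured 1 rose (Lama4) and 2 fell (Lamb2 and Lamc1) during differentiation. These shares of 10.0% and 20.0% were close to the 14.5% and 17.1% of all genes. Lamb2 alone differed between shRunx2 and Scr cells (10.0% lower, against 4.66% of all genes). Lama4, the alpha4 chain of vessel, fat and muscle laminins, read 10.14, 10.09 and 10.00 at Scr day 0, 11.21, 11.13 and 11.08 at Scr day 9, and 11.09, 11.09 and 11.11 in shRunx2 cells. Both day 9 groups lay far above day 0 and overlapped each other. Lama4 rose 2.09-fold during differentiation (log2 change 1.06 ± 0.0465, adjusted p = 1.22e-08, limma), with a difference of -0.04 ± 0.0465 between shRunx2 and Scr cells (adjusted p = 0.686, limma). The changes of the other 4 alpha chains, Lama1, Lama2, Lama3 and Lama5, passed in no comparison.

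Lamb2, the beta2 chain prominent in muscle synapses and kidney, read 10.76, 10.74 and 10.73 at Scr day 0, 10.58, 10.62 and 10.57 at Scr day 9, and 10.39, 10.41 and 10.39 in shRunx2 cells. It was the member that fell during differentiation and was lower still in shRunx2 cells, and the 3 groups did not overlap. Lamb2 fell by 0.15 ± 0.0334 on the log2 scale during differentiation (1.11-fold, adjusted p = 0.00406, limma), was 1.14-fold lower in shRunx2 than in Scr cells (-0.19 ± 0.0334, adjusted p = 0.00442, limma) and 1.27-fold lower than at Scr day 0 (adjusted p = 7.65e-06, limma).

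Lamb1, the widespread beta1 chain, read 10.68, 10.68 and 10.63 at Scr day 0, 10.71, 10.68 and 10.65 at Scr day 9, and 10.65, 10.79 and 10.68 in shRunx2 cells, and its overlapping groups passed in no comparison. Lamc1, the gamma1 chain of most laminins, read 11.11, 11.03 and 11.10 at Scr day 0, 10.92, 10.87 and 10.84 at Scr day 9, and 10.90, 10.89 and 10.82 in shRunx2 cells. Lamc1 fell 1.15-fold during differentiation (log2 change -0.20 ± 0.0403, adjusted p = 0.00216, limma), and the day 9 groups overlapped (-0.01 ± 0.0403, adjusted p = 0.938, limma). Lamb3 and Lamc3 passed in no comparison.

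In all, 19 of the 37 subunits passed in at least 1 comparison and 18 in none, and the matching share of all genes was not counted. The 18 were Itga2b, Itga4, Itga7, Itgae, Itgal, Itgam, Itgax, Itgb2l, Itgb4, Itgb6, Itgb7, Lama1, Lama2, Lama3, Lama5, Lamb1, Lamb3 and Lamc3, and their largest absolute log2 change was 0.12.

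The genes that work with these subunits were described from 3 further lists. Of 27 measured integrin ligands, 10 rose and 10 fell during differentiation (37.0% each, against 14.5% and 17.1% of all genes), and 2 were higher and 5 lower in shRunx2 than in Scr cells (7.41% and 18.5%, against 2.73% and 4.66%). Ibsp, the mineral-binding bone sialoprotein that carries Arg-Gly-Asp, had the smallest adjusted p of the list in both comparisons. It rose by a log2 change of 3.76 ± 0.0439 (adjusted p = 8.06e-13, limma) and was lower by -1.12 ± 0.0439 in shRunx2 cells (adjusted p = 1.05e-07, limma). Npnt, which encodes nephronectin, a ligand of alpha8beta1, rose 2.74-fold (log2 change 1.45 ± 0.0389), alongside Itga8. Tgfb2, a latent growth factor, rose 4.31-fold (2.11 ± 0.0675), and Tgfbi, a secreted adhesion protein, fell 2.52-fold (-1.33 ± 0.0384). Tgfb2 was on the list with Tgfb1 and Tgfb3, and whether its product binds an integrin was not tested.

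Ligands that differed between shRunx2 and Scr cells, beside Ibsp, included Edil3, a secreted ligand of alphav integrins (2.01-fold lower, -1.01 ± 0.0633), Tnc, which encodes tenascin C (1.45-fold lower, -0.53 ± 0.0449), and Ccn3, a matricellular protein (1.31-fold higher, 0.39 ± 0.0413). The median log2 change of the list was 0.0459 during differentiation and -0.0079 between shRunx2 and Scr cells. From Scr day 0 to shRunx2 day 9, 10 ligands were higher and 11 lower (37.0% and 40.7%, against 13.8% and 20.4% of all genes). Ibsp (2.64 ± 0.0439) and Tgfb2 (2.12 ± 0.0675) were the genes of the list with the largest rises there among the 4 with the smallest adjusted p, which also held Npnt (1.33 ± 0.0389) and Tgfbi (-1.30 ± 0.0384).

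Of 26 basement membrane genes and laminin partners, 11 rose (42.3%, against 14.5% of all genes) and 5 fell (19.2%, close to the 17.1% of all genes) during differentiation, and 3 were higher and 5 lower in shRunx2 than in Scr cells (11.5% and 19.2%, against 2.73% and 4.66%). Nid1, which links laminin to collagen IV networks, fell by 0.64 ± 0.0481 on the log2 scale during differentiation and was lower by -0.49 ± 0.0481 in shRunx2 cells (1.40-fold, adjusted p = 9.13e-05, limma). Lamb2, as given above, moved the same 2 ways. Col15a1, a collagen of the basement membrane zone, rose by 1.23 ± 0.0401 during differentiation and was lower by -0.38 ± 0.0401 in shRunx2 cells. The transmembrane genes Sgcd (0.76 ± 0.0349) and Sspn (0.74 ± 0.0446), of the dystrophin-linked complex, rose during differentiation, and Sgcd (0.30 ± 0.0349) and the peroxidase gene Pxdn (0.26 ± 0.0393) were higher in shRunx2 than in Scr cells. The median log2 change of the list was 0.0812 during differentiation and 0.0017 between shRunx2 and Scr cells. Against Scr day 0, 9 were higher and 7 lower in shRunx2 cells (34.6% and 26.9%, against 13.8% and 20.4% of all genes), and the smallest adjusted p belonged to Sgcd (1.05 ± 0.0349), Nid1 (-1.12 ± 0.0481), Col15a1 (0.85 ± 0.0401) and Agrn (0.77 ± 0.0483), the heparan sulfate proteoglycan agrin.

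Of 44 adhesion adaptors and kinases, which link integrin tails to actin and to signalling, 6 rose and 22 fell during differentiation (13.6% and 50.0%, against 14.5% and 17.1% of all genes). Their median log2 change was -0.1695. Tns1, the adaptor tensin 1, rose 5.40-fold (2.43 ± 0.0417, adjusted p = 8.94e-12, limma) and Dab2, an endocytic adaptor, rose 1.94-fold (0.95 ± 0.0342), while Parvb, the actin-linking protein beta-parvin, fell 2.91-fold (-1.54 ± 0.05, adjusted p = 1.07e-09, limma). Itgbl1, which rose by 1.70 ± 0.0639, encodes a secreted protein related to beta chains and is no adaptor. It was nonetheless on this list, and all counts, shares and medians of the list include it. In shRunx2 against Scr cells 1 gene of this list was higher and 5 were lower (2.27% and 11.4%, against 2.73% and 4.66% of all genes), with a median of -0.02. These included Dab2 (-0.35 ± 0.0342), the kinase gene Fyn (-0.38 ± 0.041) and Itgbl1 (-0.50 ± 0.0639), which were lower, and Apbb1ip, which encodes an activator of talin (0.30 ± 0.0574) and was higher. Against Scr day 0, 5 of the list were higher and 23 lower in shRunx2 cells (11.4% and 52.3%, against 13.8% and 20.4% of all genes), with Tns1 (2.48 ± 0.0417), Parvb (-1.56 ± 0.05), the kinase gene Ptk2b (-0.94 ± 0.0416) and Fyn (-0.86 ± 0.041) having the smallest adjusted p.

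**Figure D4:**
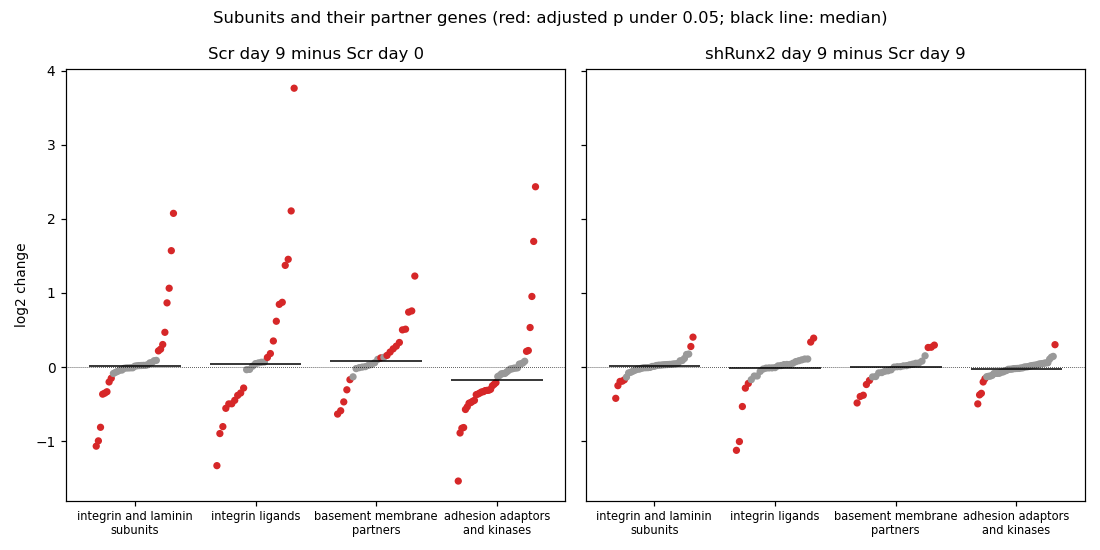
Log2 change (vertical axis) of each measured gene of 4 lists, ordered by size within the list, during differentiation (left) and between shRunx2 and Scr cells at day 9 (right), with red for an adjusted p under 0.05 and a black line at the median of the list. The adaptors and kinases have their median at -0.1695 on the left, where the other lists have medians between 0.0116 and 0.0812, and all 4 medians on the right lie between -0.02 and 0.01.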

How the data were processed

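Log2 expression values of 34760 probe sets on 9 Affymetrix Mouse Gene 1.0 ST arrays were used as deposited. The authors made them with RMA, which corrects background, normalizes quantiles and summarizes each probe set by median polish, and the submitters' processing notes name RMA and limma. The methods also name a filter without describing it, and a genome build is not given in the sources used here. With no read depth, precision is limited by the number of arrays (3 per group). P values set differences of group means against the spread of these arrays within the 3 groups, which the model pools and moderates across genes. From the platform annotation 21640 probe sets had 1 symbol, 1321 had several and 11799 were unnamed. Where a gene had more than 1 probe set (954 genes), the brightest on average was kept.

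The limma package (3.58.1, in R 4.3.3) was used to fit all 9 arrays in 1 model of group means without covariates, with empirical Bayes moderation and Benjamini-Hochberg adjustment over 19937 genes, as checked on simulated data. Groups came from the sample titles. The members, partner lists, marker lists (osteoblasts, leukocytes, endothelium and platelets, epithelium, muscle) and the naming rule were chosen with earlier results of these data known. Values on every array are given for subunits that passed between shRunx2 and Scr cells, subunits past 1.5-fold against Scr day 0, and Itgb1, Itgav, Lamb1 and Lamc1. From each partner list up to 4 genes with the smallest adjusted p were named in each comparison, and from marker lists up to 3, to which Lmod1, and Alpl for differentiation, were added after their values were seen. Probe sets shared by Itgam and Rpl35 (2) were not used. Alternatives covered scaling, filtering, probe set choice, weights, the replicate number as a block, and leaving out each array. Promoters are from RefSeq (GRCm38.p6).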

Additional observations from a re-analysis of the deposited data

How the results depend on the processing

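Of 60 single-gene results under 18 alternative settings, 41 were called and 0 of these changed direction, while 8 of the 19 that were not called changed sign around 0 without passing the test. Of the 41 called, 35 stayed past the threshold under every setting that could test them, among them Itga6, Itgb3, Itgb5, Itgb8 and Lamb2 between shRunx2 and Scr cells. The exceptions were Itga1 and Itga9 between shRunx2 and Scr cells, Itga2 during differentiation, and Itga1, Itgb5 and Itgad between shRunx2 cells and Scr day 0. Itga1 and Itga9 also lost their calls between shRunx2 and Scr cells with only the 6 arrays of both groups (adjusted p 0.0586 and 0.053) and over every probe set (0.13 and 0.066). Among these 60 results, calls gained under some settings were those of Itga11, Itga8 and Itgad between shRunx2 and Scr cells. Itga9 also gained a call during differentiation, and Itga9 and Lamb1 between shRunx2 cells and Scr day 0. The remaining subunits were not followed singly, and calls were gained among them too. During differentiation 10 subunits rose with array weights, and 9 fell after median centring or a further quantile normalization, against 8 each in the main setting.
The number of subunits higher in shRunx2 than in Scr cells, 2 in the main setting, was 1 with only the arrays of the groups compared, 1 over every probe set, 4 among genes above the median expression, 4 with array weights, and between 1 and 2 when an array was left out. Subunits that rose during differentiation numbered 5 among genes above the median expression, a setting that tests fewer genes, against 8. All genes that differed between shRunx2 and Scr cells numbered 1474, 2590 with array weights, and between 858 (without Scr day 9 replicate 2) and 1502 when an array was left out, with 919 without shRunx2 replicate 1. The higher ones were 36.9% of them, and 47.9% after a further quantile normalization. During differentiation the higher ones were 45.9% of all genes called, and 36.0% with each array centred on its median. For shRunx2 cells against Scr day 0 they were 40.4%, and 31.5% with that centring. The shares of all genes given beside the lists are those of the main setting. The causes of these shifts were not tested.
Correlations of same-numbered arrays' deviations from their group means ran from -0.114 to 0.294 over the comparisons. Between Scr day 9 and Scr day 0 they were 0.294 and 0.285 for replicates 1 and 3, above those with other numbers, and 0.0823 for replicate 2, below the 0.11 with another number. Not every pair was over 0.1 in any comparison, so the replicate number was not taken to pair the arrays, although the values of replicates 1 and 3 are a hint of pairing between the Scr groups. With the replicate block, 2 subunits were higher and 5 lower in shRunx2 than in Scr cells (1450 genes in all), 8 rose and 8 fell during differentiation (6466 genes), 10 were higher and 8 lower against Scr day 0 (6997 genes), and no call for a subunit changed. Without detection calls, changes of dim probe sets near background are not resolved.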
